A study of Mus musculus with 12 samples.

Results

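Mitochondrial ribosomal protein genes were taken as every gene whose symbol is Mrpl or Mrps followed by a number and at most 1 letter, which gave 78 of the 36047 genes measured. They were compared across 3 subsets of eosinophils of the mouse small intestine (SI), told apart at the cell surface by α4β7, an integrin that directs cells to the gut, and by CD22, a sialic acid-binding lectin. The subsets were called α4β7+ for the integrin, α4β7− CD22− for the lack of either marker, and CD22+ for the lectin. The study asked how eosinophils adapt to the SI, and used these markers to tell recent arrivals from cells that had stayed longer. All mice were wild type C57BL/6J kept on standard chow, and the labels give them as female, whereas the study's methods name both sexes. Live cells positive for CD45, CD11b, and SiglecF and negative for MHCII and Ly6G were sorted from the proximal SI lamina propria, with 2 mice pooled per library and 4 libraries per subset, 12 in all. Mice were between 6 and 12 weeks old, a range given for the whole study and not for single libraries.

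Mitochondria carry their own ribosome, which translates the few proteins encoded by mitochondrial DNA, all of them subunits of the respiratory chain or of ATP synthase. Its rRNAs are made inside the organelle, but its proteins are encoded in the nucleus, translated in the cytosol, and imported. Many of these proteins hold the place of a bacterial ribosomal protein, and others have a place only in the mitochondrial ribosome. Of the 78 genes, 26 encode proteins of the small subunit, which reads the mRNA, and 51 encode proteins of the large subunit, which forms peptide bonds. By place, 46 encode counterparts of bacterial ribosomal proteins and 31 encode mitochondria-specific ones. The second class includes Mrps18a and Mrps18b, whose products are related in sequence to a bacterial protein but stand elsewhere in the ribosome. Mrps36 stands in neither group, since its product belongs to the α-ketoglutarate dehydrogenase complex despite its name. Mrps18a and Mrps30 are counted with the large subunit, where their products are assembled.

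Values are normalized counts, as the authors derived them with DESeq2, and they summed to between 14286474 and 16915755 per library. The correlation between libraries, on log2 values of the genes tested, lay between 0.921 and 0.966. Differences were tested with limma on log2(normalized count + 1) over the 15249 genes with an average above 10, and a gene was called when it changed by 1.5-fold or more with a p, adjusted by Benjamini-Hochberg, not above 0.05, the thresholds of the study. All 78 genes passed the filter, so none was left out for a low level. Eosinophil markers (Siglecf, Ccr3, Il5ra, Itgam, Epx, Prg2) were present in all libraries, with sums of 68717 to 76449 in α4β7+ libraries, 55729 to 60683 in the α4β7− CD22− libraries, and 47579 to 52282 in those of CD22+. Over α4β7+, Ccr3 and Prg2 were called lower in α4β7− CD22− (median of the 6 genes −0.28), and Ccr3, Epx, Il5ra, and Prg2 in CD22+ (median −0.89). Markers of other cells were also present. The 5 plasma cell genes summed to 15413 to 33463, 11537 to 34029, and 16042 to 36883 in these subsets, and the 6 epithelial genes to 2280 to 5224, 1421 to 3281, and 910.6 to 5688, with none of either list at 0 and none called. T cell genes (3) summed to 520.8 to 704.0, 364.0 to 539.3, and 402.0 to 682.2, with Cd3e called lower in α4β7− CD22− (−1.11, adjusted p = 0.0168 by limma). In that comparison with α4β7+, Trbc2 was at −1.09 (adjusted p = 0.0567) and Cd3d at 0.07 (adjusted p = 0.871), and neither was called. Neutrophil genes (3) summed to 22 to 64.2, 12.8 to 31.9, and 1.86 to 12.7, with Mmp8 called lower in CD22+ than in α4β7+ (−2.71, adjusted p = 0.0014). Paneth cell genes (4) summed to 174.1 to 389.3, 71.1 to 324.0, and 168.6 to 1248, with none of the 3 tested called. No marker of B cells, macrophages, antigen-presenting cells, mast cells, or stroma was called in any comparison. The part of any of these markers, eosinophil genes included, in the results was not tested. In such bulk samples, fewer cells of a type and less RNA per cell cannot be told apart. Nothing in the labels says whether libraries of a subset came from separate sorts, so p-values measure the spread between these libraries.

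Promoters were searched for the letters of 4 factors linked to genes of mitochondrial biogenesis or growth: the NRF1 core GCATGCGC, the ETS-type letters CCGGAAGT, the YY1 letters AAGATGGC, and the E-box CACGTG bound by MYC. RefSeq windows of 300 bases on GRCm38.p6, from 250 before the start to 50 after it, were found for 69 of the 78 genes, and both strands were read. The NRF1 core stood in 8 of the 69 (11.6%, against 3.05% of 27025 genes), the ETS letters in 12 (17.4%, against 4.31%), the YY1 letters in 12 (17.4%, against 3.19%), and the E-box in 5 (7.25%, against 8.09%). The YY1 letters hold ATG, which is also a start codon, and may fall in the first coding bases. The 27025 genes were not limited to those expressed here and were not matched for base content. Whether the members differ from other expressed genes in these letters was not tested. A match describes letters, not bound factors. The 3 windows printed belong to genes called below, and they show the different arrangements, with the matches in capitals.

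Mrps18b (chr17:35916391-35916690, minus strand, 2 NRF1 cores): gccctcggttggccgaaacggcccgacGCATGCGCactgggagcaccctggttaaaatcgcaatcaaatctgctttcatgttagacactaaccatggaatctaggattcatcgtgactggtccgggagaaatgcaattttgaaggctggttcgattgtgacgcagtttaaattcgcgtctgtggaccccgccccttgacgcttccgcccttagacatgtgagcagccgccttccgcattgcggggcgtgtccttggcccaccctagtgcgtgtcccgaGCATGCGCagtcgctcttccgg
Mrpl33 (chr5:31613701-31614000, plus strand, an NRF1 core on the other strand and the ETS letters 1 base after it): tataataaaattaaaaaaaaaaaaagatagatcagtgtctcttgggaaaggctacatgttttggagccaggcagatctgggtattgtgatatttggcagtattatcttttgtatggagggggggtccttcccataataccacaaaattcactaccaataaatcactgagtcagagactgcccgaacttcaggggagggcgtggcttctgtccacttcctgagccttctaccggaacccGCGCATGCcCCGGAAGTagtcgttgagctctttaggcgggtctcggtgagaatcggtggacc
Mrpl49 (chr19:6057706-6058005, minus strand, the YY1 letters 16 bases after the start): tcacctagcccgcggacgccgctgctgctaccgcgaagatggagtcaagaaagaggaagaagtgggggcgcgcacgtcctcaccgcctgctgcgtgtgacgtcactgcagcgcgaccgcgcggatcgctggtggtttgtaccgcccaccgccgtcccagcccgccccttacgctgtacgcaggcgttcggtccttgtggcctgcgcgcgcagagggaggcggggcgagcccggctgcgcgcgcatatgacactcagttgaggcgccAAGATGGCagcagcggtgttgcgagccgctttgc

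The windows of Mrpl12, Mrps33, Mrpl1, and Mrpl47 held none of the 4 motifs. Between CD22+ and α4β7+ eosinophils, the 8 genes with an NRF1 core had a median log2 fold change of −0.30, against −0.12 for the other matched genes. With the ETS letters the medians were −0.04 and −0.18. With the YY1 letters they were −0.10 and −0.18, and with the E-box they were 0.04 and −0.14. These medians were not tested.

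Most proteins of the ribosome are needed in equal numbers. The levels of their mRNAs, measured as normalized counts per kilobase of transcript, spanned a 34.7-fold range. The median was 117.6 per kilobase, close to the median of 91.2 over all tested genes with a length and far under that of the genes for cytosolic ribosomal proteins (2671) or of the nuclear genes for oxidative phosphorylation (OXPHOS) subunits (614.5). Mrpl33 (865.1) and Mrps21 (862.5) were highest and differed by less than their spread over libraries, followed by Mrpl24 (612.9), Mrpl42 (452.6), and Mrpl54 (395.6). At the other end, Mrpl11 (39.8), Mrps16 (35.5), and Mrpl47 (24.9) were lowest per kilobase, and neighbours in this order differed by less than 1 SD over libraries. The small-subunit genes had a median of 101.9 and the large-subunit genes of 138.8 per kilobase. By normalized count not divided by length, Mrps28 was lowest (34.5 on average) and Mrpl24 highest (753.8). Lengths were medians over the annotated coding transcripts of a gene, not over those expressed here. The part of these lengths in the range and the order was not tested.

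**Figure D1:**
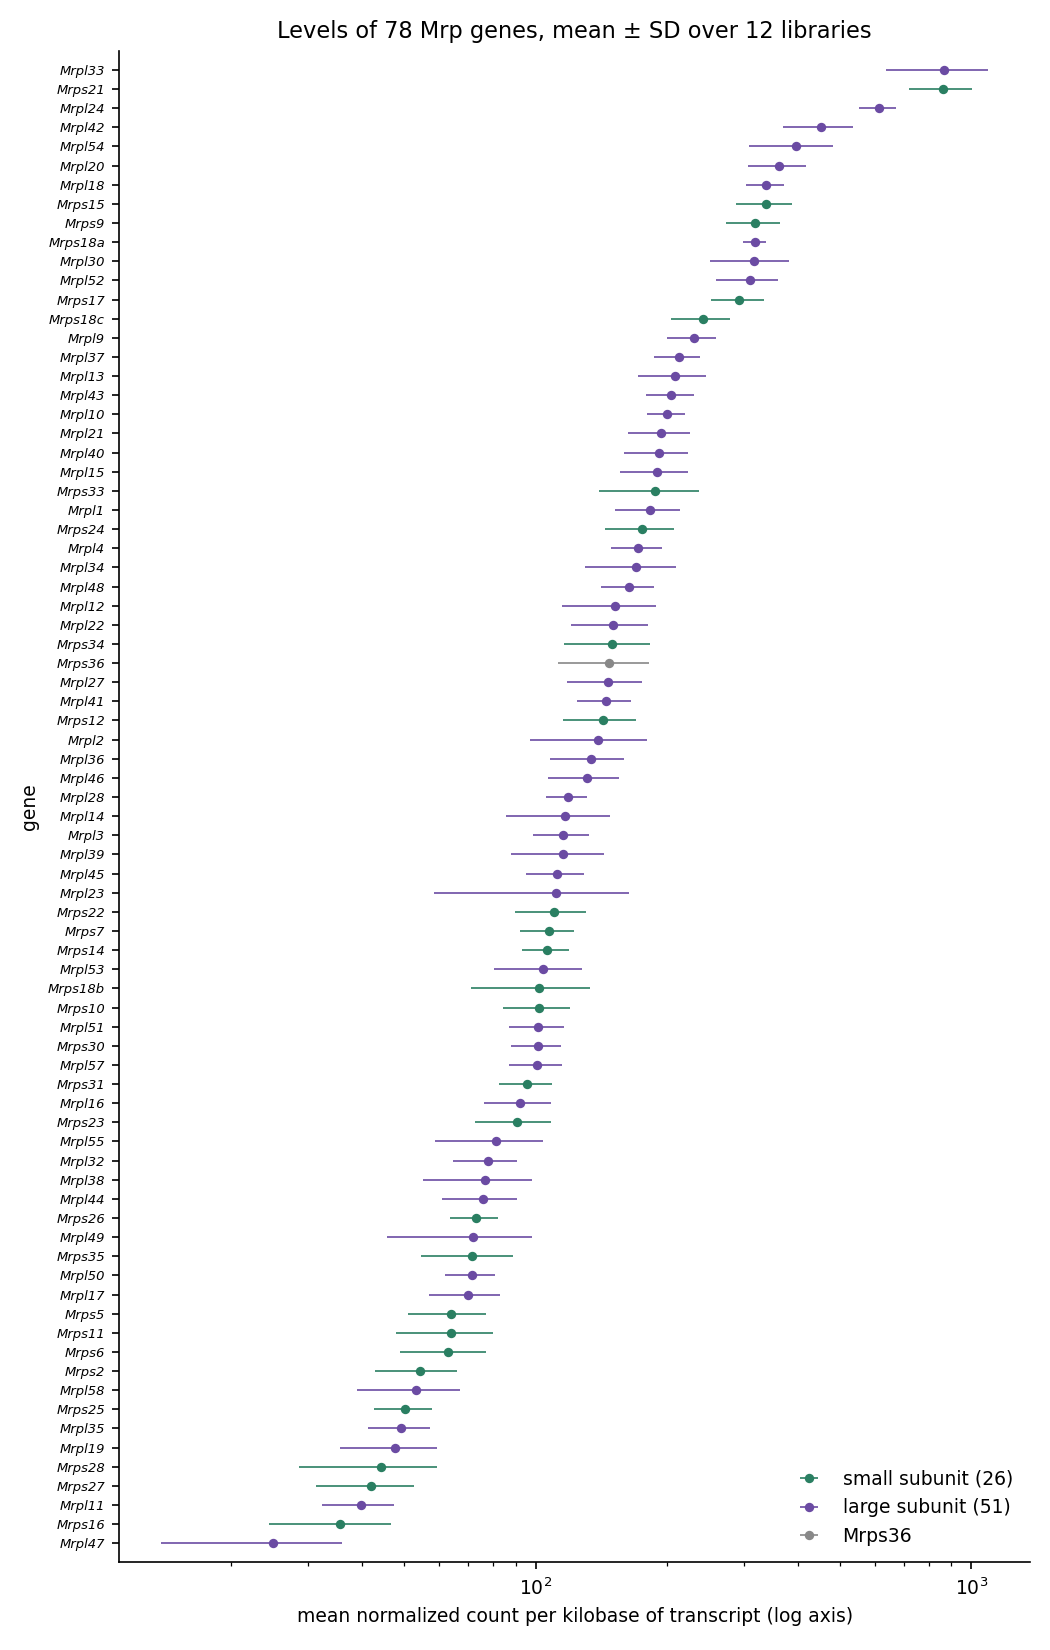
Levels of the 78 genes, as mean normalized count per kilobase of transcript on a log axis, with bars of 1 SD over the 12 libraries and colours for the subunits. Levels run from 24.9 (Mrpl47) to 865.1 (Mrpl33), and genes of the small and large subunits are mixed along the whole range.

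Few of the 78 genes passed the test, and the shift of the group was small. The comparisons of α4β7− CD22− and CD22+ with α4β7+ share its 4 libraries and are not independent. The median deviation of the members had an SD of 0.096 log2 units between libraries of a subset, and differences of medians were not tested. The members' median log2 fold change was −0.137 in α4β7− CD22− over α4β7+, against 0.003 over all genes tested, and 56 of the 78 estimates (71.8%) were below 0, against 49.6% of all genes. In CD22+ over α4β7+ the median was −0.139, against 0.014, with 56 estimates below 0 (71.8%, against 48.5%). When libraries were rescaled to equal totals, the median of all genes moved to 0.097 and 0.171 in these comparisons and that of the members to −0.042 and 0.018, so the sign of the second depends on the scaling. Such rescaling shifts all genes alike. Quantile normalization, which does not, gave members −0.132 against 0.028 for all genes and −0.165 against 0.026. Between CD22+ and α4β7− CD22−, the median was −0.009 against −0.001, and its sign also changed with the scaling (−0.041 to 0.054).

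Between α4β7− CD22− and α4β7+ eosinophils, 1 gene was called lower, Mrps18b, and 0 higher. This is 1.28% of the members, whereas 4.35% of all genes tested were called lower and 3.70% higher. With equal totals the split was 0 lower and 1 higher (Mrpl1, 1.28%), against 3.31% and 5.38% of all genes. At the adjusted p alone, 1 was lower and 1 higher (Mrpl1), against 7.73% and 7.13% of all genes. At an unadjusted p under 0.05, limma placed 9 members lower and 1 higher, against 13.5% and 13.6% of all genes. The libraries of 6 members did not overlap in the lower direction (Mrpl24, Mrpl34, Mrpl51, Mrpl54, Mrps18b, and Mrps33, 7.69%, against 9.80% of all genes), and those of Mrpl1 in the higher direction (against 8.96%). For 39 members (50%, against 38.8% of all genes), the 95% interval of the difference lay inside 1.5-fold in both directions.

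Between CD22+ and α4β7+ eosinophils, 5 genes were called lower (Mrps18b, Mrps33, Mrpl33, Mrpl54, and Mrpl12) and 1 higher (Mrpl49). These were 6.41% and 1.28% of the members, against 6.39% and 5.60% of all genes tested, so the share called lower was that of the background. With equal totals the split was 3 lower and 3 higher (3.85% each, against 4.52% and 9.91% of all genes), and over all genes the share of calls that were higher went from 46.7% to 68.7%. At the adjusted p alone, 8 members were lower (10.3%, against 11.1%), with Mrpl24, Mrpl39, and Mrps12 added, and 3 higher (3.85%, against 10%), with Mrpl1 and Mrpl3 added. At an unadjusted p under 0.05, limma placed 11 members lower and 4 higher, against 15.9% and 16.1% of all genes. Libraries did not overlap for 8 members in the lower direction (Mrpl12, Mrpl16, Mrpl24, Mrpl33, Mrpl54, Mrps12, Mrps18b, and Mrps33, 10.3%, against 11.8%). In the higher direction they did not overlap for 5 (Mrpl1, Mrpl3, Mrpl49, Mrps30, and Mrps34, 6.41%, against 11%). The interval lay inside 1.5-fold for 40 members (51.3%, against 34.6%).

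Between CD22+ and α4β7− CD22− eosinophils, 0 members were called in either direction by limma, against 0.393% lower and 0.210% higher of all genes, and 0 at the adjusted p alone (against 0.820% and 0.256%). At an unadjusted p under 0.05, 4 were lower (Mrpl11, Mrpl53, Mrpl54, and Mrps33) and 2 higher (Mrpl47 and Mrpl49), against 6.02% and 3.65% of all genes. With same-numbered libraries of these 2 subsets paired, 0 were lower at that threshold and Mrpl47 and Mrpl49 were higher (2.56%), against 6.87% and 5.32% of all genes in that fit. Libraries did not overlap for 0 members in the lower direction (against 3.72%) and for Mrpl47 and Mrpl49 in the higher direction (2.56%, against 2.66%). The interval lay inside 1.5-fold for 43 members (55.1%, against 48.7%). Standard errors of the members ranged from 0.080 to 0.394 log2 units, with a median of 0.174, so a difference of 1.5-fold was within reach for some genes and not for others.

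**Figure D2:**
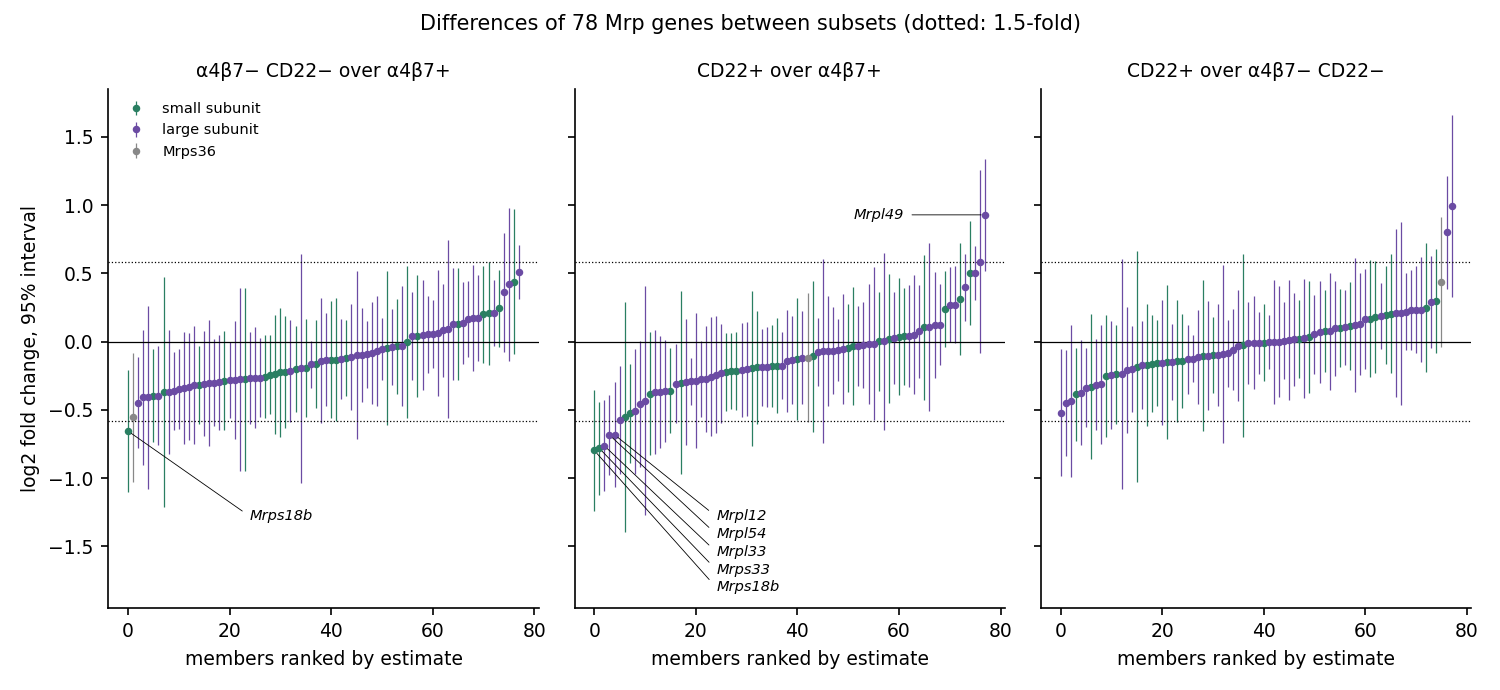
Log2 fold changes of the 78 genes in the 3 comparisons, each ranked by its estimate, with 95% intervals, colours for the subunits, and dotted lines at 1.5-fold. Named genes were called: 1 lower in the first comparison, 5 lower and 1 higher in the second, and none in the third, where the estimates run from −0.52 to 0.99.

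Among small-subunit genes, Mrps18b encodes a relative of a bacterial small-subunit protein that holds a mitochondria-specific place (chromosome 17, 35910379 to 35916389, minus strand). Its normalized counts were 115.0, 159.3, 124.3, and 122.2 in α4β7+ libraries, 70.7, 90.5, 85.7, and 81.1 in α4β7− CD22−, and 50.2, 83.5, 78.7, and 90.3 in CD22+. Every α4β7+ library stood above all the others, and the other subsets overlapped. The log2 fold change was −0.66 ± 0.21 (SE, adjusted p = 0.0469 by limma) in α4β7− CD22− and −0.80 ± 0.21 (adjusted p = 0.0125) in CD22+. The first of these calls was lost when any of the 8 libraries compared, or CD22+ replicate 2 or 3, was left out (adjusted p 0.0551 to 0.131). An antisense gene, Gm16279, overlaps 59.1% of the transcript, and reads of such pairs cannot be told apart unless counted by strand; the kit was stranded and the counting setting is not given in the sources used here.

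The other genes of that family were called in no comparison. Mrps18a, whose product sits in the large subunit, had 270.1 to 315.0 normalized counts in α4β7+ libraries, 260.3 to 298.1 in the α4β7− CD22− libraries, and 267.8 to 289.1 in those of CD22+. Its log2 difference between CD22+ and α4β7+ was −0.06, with a 95% interval of −0.29 to 0.17. Mrps18c, the counterpart of the bacterial protein, had 152.2 to 182.8, 171.4 to 231.8, and 139.8 to 206.8 normalized counts, with a difference of 0.04 (interval −0.32 to 0.39). The differences between paralogues were not tested.

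Mrps33, a mitochondria-specific protein of the small subunit (chromosome 6, 39801804 to 39810988, minus strand), had 201.8, 176.2, 223.6, and 173.0 normalized counts in α4β7+ libraries. In α4β7− CD22− these were 145.4, 172.3, 140.9, and 129.0, and in CD22+ they were 129.3, 91.3, 113.0, and 116.3. No library of CD22+ reached the lowest α4β7+ library, and replicate 1 of CD22+ just exceeded the lowest α4β7− CD22− value. The log2 fold change was −0.40 (adjusted p = 0.120) in α4β7− CD22− and −0.78 ± 0.16 (SE, adjusted p = 0.00243 by limma) in CD22+. Of its transcript, 29% matches Gm5776 and Gm12540 at an identity of at least 90%, and these were listed at 6.15 to 37.7 and at 0 normalized counts.

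The remaining small-subunit genes were called in no comparison. Mrps12, which lies at the decoding centre, was 128.2, 120.2, 105.4, and 139.2 in α4β7+ libraries, 104.0, 107.2, 108.1, and 83.8 in the α4β7− CD22− libraries, and 96.7, 74.5, 81, and 88.9 in those of CD22+. Its fall in CD22+ passed the adjusted p but not the 1.5-fold threshold (−0.53, adjusted p = 0.0389 by limma). Mrps34 went the other way, from 104.1 to 122.7 in α4β7+ to 140.8 to 216.8 in CD22+ libraries, with no overlap, a difference of 0.50, and an adjusted p of 0.0574. With equal totals it was called higher (0.66, adjusted p = 0.0126 by limma). An antisense overlap with Mapk8ip3 covers 62.7% of its transcript, and Mapk8ip3 was far higher, at 1632 to 2075 normalized counts. In α4β7− CD22−, 20 of the 26 small-subunit estimates were below 0 (median −0.18), and in CD22+ 18 were (median −0.18).

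Of the 51 large-subunit genes, 3 were called lower in CD22+ than in α4β7+ (5.88%, against 6.39% of all genes) and 1 higher (1.96%, against 5.60%). Mrpl33, a short homologue of a bacterial large-subunit protein (chromosome 5, 31596935 to 31664384, plus strand), was the most abundant member per kilobase. It had 457.7, 530.8, 574.4, and 563.7 normalized counts in α4β7+ libraries, 490.3, 325.3, 387.4, and 366.7 in the α4β7− CD22− libraries, and 283.7, 255.9, 317.2, and 408.8 in those of CD22+. All CD22+ values were under all α4β7+ values, and α4β7− CD22− replicate 1 lay within the α4β7+ range. The log2 fold change was −0.45 (adjusted p = 0.0707) and −0.76 ± 0.16 (SE, adjusted p = 0.00244 by limma). A same-strand gene model, Gm43809, shares 37% of the exonic bases.

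Mrpl12 and Mrpl54 encode proteins of the stalk of the large subunit, where translation factors bind. Mrpl54 (chromosome 10, 81264713 to 81266934, minus strand), with no shared sequence found, had 311.7, 302.7, 283.3, and 289.5 normalized counts in α4β7+ libraries, 258.5, 253.8, 188.8, and 238.1 in the α4β7− CD22− libraries, and 214.7, 163.3, 192.9, and 170.2 in those of CD22+. Its libraries were separate from α4β7+ in both other subsets, and the log2 fold change was −0.35 (adjusted p = 0.109) in α4β7− CD22− and −0.68 ± 0.14 (SE, adjusted p = 0.00193 by limma) in CD22+. Mrpl12 (chromosome 11, 120484613 to 120489065, plus strand) had 265.4, 272.6, 222.8, and 220.6, then 218.7, 161.6, 180.6, and 236.8, then 131.0, 119.9, 193.9, and 174.2, the subsets taken as before. Its CD22+ libraries lay under all α4β7+ libraries, and the α4β7− CD22− libraries overlapped those of the other subsets. The difference was −0.31 (adjusted p = 0.301) and −0.68 ± 0.18 (SE, adjusted p = 0.0131 by limma), and without CD22+ replicate 2 it was −0.57, under 1.5-fold. For Mrpl12, 55.1% of the transcript matches other genes, chiefly Gm15770, listed at 0 in every library. With equal totals, Mrpl54 (−0.53) and Mrpl12 (−0.52) also fell short of 1.5-fold.

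The other proteins of this stalk, looked up after these values were seen, were not called. In CD22+ over α4β7+, Mrpl10 was at −0.18 (adjusted p = 0.322), Mrpl11 at −0.28 (adjusted p = 0.330), and Mrpl53 at −0.46 (adjusted p = 0.162), all by limma. Mrpl53 lies wholly within Gm42688 on the same strand, whose normalized counts (112.3 to 259.0) exceeded its own (48 to 99.9), so its level is uncertain. Mrpl11 and Mrpl53 also had the largest negative differences between CD22+ and α4β7− CD22−, at −0.45 (adjusted p = 0.396) and −0.52 (adjusted p = 0.415), which did not pass.

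Mrpl49, a mitochondria-specific protein of the large subunit (chromosome 19, 6053622 to 6057785, minus strand), was the member called higher. It had 115.2, 103.5, 71.9, and 91.2 normalized counts in α4β7+ libraries, 90, 108.9, 100, and 114.4 in the α4β7− CD22− libraries, and 142.9, 162.6, 205.4, and 218.9 in those of CD22+. All 4 CD22+ libraries exceeded the other 8, which overlapped each other. The log2 fold change over α4β7+ was 0.93 ± 0.19 (SE, adjusted p = 0.00267 by limma). Over α4β7− CD22− it was 0.80 ± 0.19 (adjusted p = 0.0698), the smallest adjusted p of any member in that comparison. There the difference passed with equal totals (0.86, adjusted p = 0.0496). Blocking same-numbered libraries in limma, over all 12 libraries, moved it further from the threshold (adjusted p = 0.110). An antisense overlap of 5.16% with Syvn1 was annotated, and Syvn1 was at 769.4 to 1058 in CD22+ against 648.6 to 762.5 in α4β7+ libraries (0.33, adjusted p = 0.0706).

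Mrpl1, a protein of the stalk through which spent tRNA leaves, had the smallest adjusted p of any member in both comparisons with α4β7+. Its normalized counts were 337.8, 382.8, 356.1, and 346.1 in α4β7+ libraries, 521.4, 504.9, 465.7, and 538.7 in the α4β7− CD22− libraries, and 492.2, 518.2, 474.8, and 536.1 in those of CD22+. All 8 libraries of the other subsets exceeded the α4β7+ libraries. The log2 fold changes of 0.51 ± 0.09 (SE, adjusted p = 0.00153 by limma) and 0.51 (adjusted p = 0.00103) passed the adjusted p and stayed under 1.5-fold, except with equal totals (0.61 and 0.66). Between these 2 subsets the difference was −0.01, with a 95% interval of −0.20 to 0.19. No other gene shares its sequence or exons.

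Mrpl3, which reaches toward the peptidyl transferase centre, had 291.7, 323.3, 301.7, and 337.1 normalized counts in α4β7+ libraries, 408.2, 365.9, 320.8, and 358.9 in the α4β7− CD22− libraries, and 480.7, 382.5, 410.0, and 383.5 in those of CD22+. The CD22+ libraries were all above α4β7+, by 0.40 on the log2 scale (adjusted p = 0.0215 by limma), under 1.5-fold. Mrpl24, by contrast, was 777.0 to 873.4 in α4β7+ libraries, 720.1 to 773.2 in the α4β7− CD22− libraries, and 626.6 to 721.8 in those of CD22+, and the log2 difference of CD22+ from α4β7+ was −0.29 (adjusted p = 0.0173). Its transcript overlaps the antisense gene Rrnad1 over 43.6% of its length, and Rrnad1 moved in the opposite direction (0.48, adjusted p = 0.00542). Mrpl39, at 239.1 to 396.1 in α4β7+ and 164.3 to 267.8 in CD22+ libraries, overlapped between subsets and differed by −0.57 (adjusted p = 0.0375). Mrpl47, a protein near the exit tunnel and the member lowest per kilobase, was 58 to 88.7 in α4β7+, 29.8 to 76.6 in α4β7− CD22−, and 78 to 182.6 in CD22+ libraries. Its difference between the last 2 subsets, 0.99 ± 0.31 (SE), was the largest of any member in any comparison and did not pass (adjusted p = 0.218), and those from α4β7+ were −0.41 (adjusted p = 0.447) and 0.59 (adjusted p = 0.220). As each library was left out, the 0.99 ran from 0.70 to 1.16 and the 0.59 from 0.35 to 0.76. Its transcript shares 40.8% of its bases with 4 other genes, and the antisense genes Actl6a and Ndufb5, which overlap 18.1% of it, were higher, at 287.5 to 443.9 and 207.4 to 380.1 normalized counts, so its level is uncertain.

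Mrps11 and Mrpl14 had large estimates that did not pass. Mrps11, a protein of the small-subunit platform, had 51.5 to 78.6 normalized counts in α4β7+ libraries, 67.7 to 87.2 in the α4β7− CD22− libraries, and 48.8 to 97.5 in those of CD22+, and the first difference was 0.44 (adjusted p = 0.286 by limma). Mrpl14, which faces the small subunit, had 48.6 to 76.2, 57.2 to 105.8, and 46 to 82.8, with 0.42 in α4β7− CD22− over α4β7+ (adjusted p = 0.337) and −0.44 in CD22+ over α4β7− CD22− (adjusted p = 0.676). As each library was left out, these Mrpl14 estimates ran from 0.27 to 0.63 and from −0.64 to −0.27. The libraries of both genes overlapped between all subsets.

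**Figure D3:**
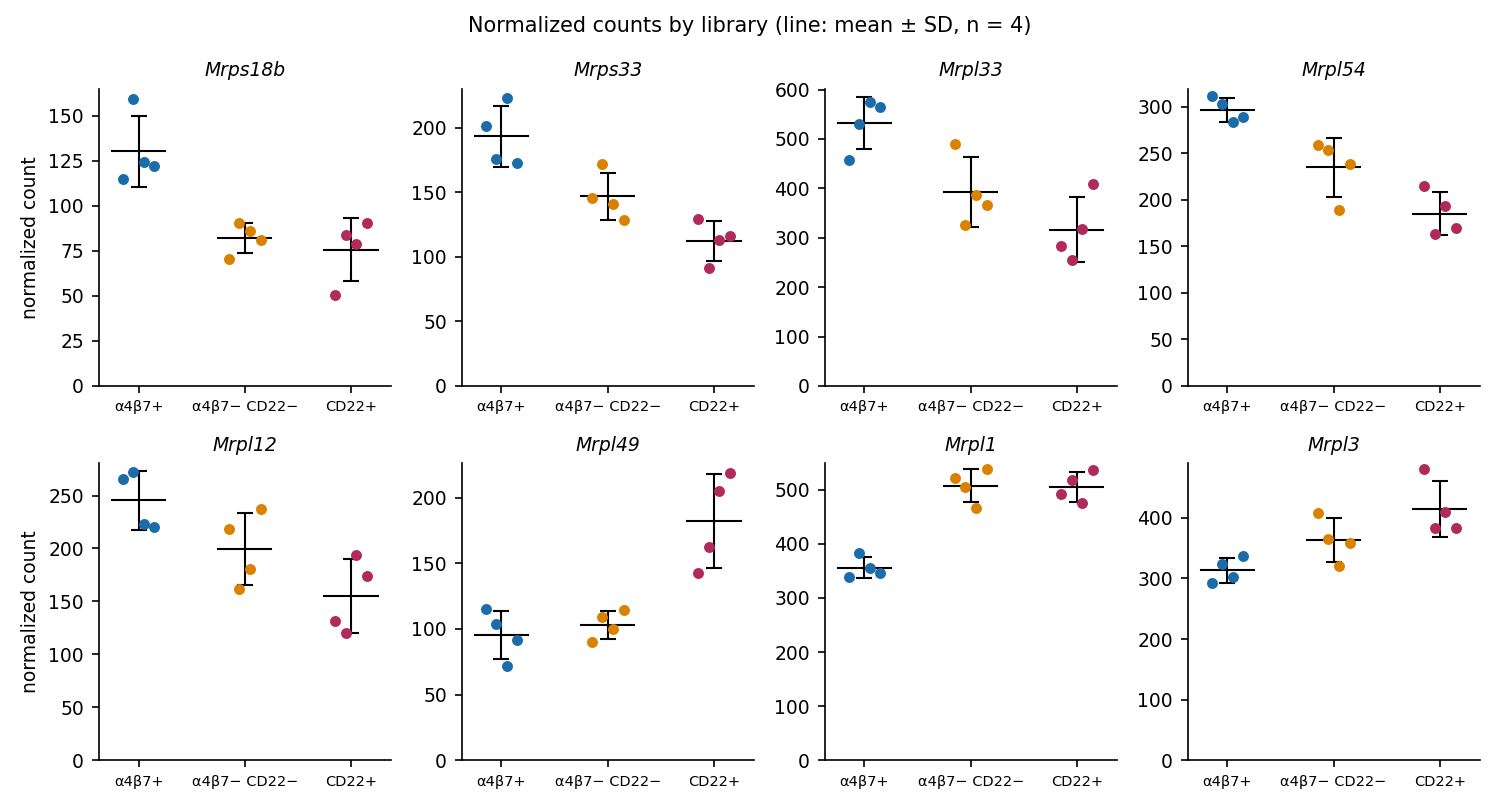
Normalized counts of 8 members in each library by subset, with the mean and SD of 4 libraries. The first 5 panels are lower in CD22+ than in α4β7+ without overlap, Mrpl49 is higher in CD22+ than in both other subsets, and Mrpl1 and Mrpl3 are higher in CD22+ than in α4β7+.

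Split by place, the 46 genes for counterparts of bacterial proteins had median log2 fold changes of −0.21, −0.19, and −0.02 in the 3 comparisons (α4β7− CD22− over α4β7+, CD22+ over α4β7+, and CD22+ over α4β7− CD22−), and the 31 mitochondria-specific ones had −0.07, −0.07, and −0.01. In CD22+ over α4β7+, 2 of the 46 were called lower (Mrpl12 and Mrpl33, 4.35%) and 0 higher, and of the 31, 3 were called lower (9.68%) and 1 higher (3.23%), against 6.39% and 5.60% of all genes. Mrps36, outside the ribosome, had 109.6, 109.4, 122.3, and 88.2 normalized counts in α4β7+ libraries, 61.6, 79.7, 58.2, and 95.6 in the α4β7− CD22− libraries, and 70, 119.9, 103.8, and 106.9 in those of CD22+. Its differences were −0.55 (adjusted p = 0.116 by limma), −0.12 (adjusted p = 0.771), and 0.44 (adjusted p = 0.570). Mrps30 was 320.3, 329.5, 265.5, and 322.5 in α4β7+ and 356.2, 338.7, 395.7, and 402.7 in CD22+ libraries, with a difference of 0.27 that did not pass (adjusted p = 0.171).

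Summed over the 78 genes, the normalized counts were 17774 ± 870 (SD, n = 4) in α4β7+ libraries, 16381 ± 976 in the α4β7− CD22− libraries, and 16285 ± 1342 in those of CD22+, and these ranges overlapped. As a share of the library total, the sums were 1091 ± 52.6, 1075 ± 73.5, and 1117 ± 103 in each 1000000 counts. The small subunit took 29.5%, 29.2%, and 29.0% of the sum. Genes of cytosolic ribosomal proteins, which build the ribosome that makes nearly all cellular protein, moved much more. Of 83 tested, 47 were called lower in α4β7− CD22− and 71 in CD22+ (56.6% and 85.5%, against 4.35% and 6.39% of all genes). All 83 estimates were below 0, with median log2 fold changes of −0.62 and −0.90. For every 1000 normalized counts of cytosolic ribosomal protein genes, the mitochondrial ones had 57 ± 3.72 (52.6 to 61.7) in α4β7+, 81.2 ± 4.7 (76.6 to 87.8) in α4β7− CD22−, and 99.9 ± 7.82 (94.1 to 111) in CD22+ libraries, and no ranges overlapped. Against 100 counts of nuclear OXPHOS subunit genes, they had 32.4 ± 0.383, 33.7 ± 1.19, and 36.2 ± 1.43. Of the 80 OXPHOS genes tested, 1 and 5 were called lower in these subsets (1.25% and 6.25%, against 4.35% and 6.39% of all genes), with medians of −0.18 and −0.32. These ratios were not tested.

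**Figure D4:**
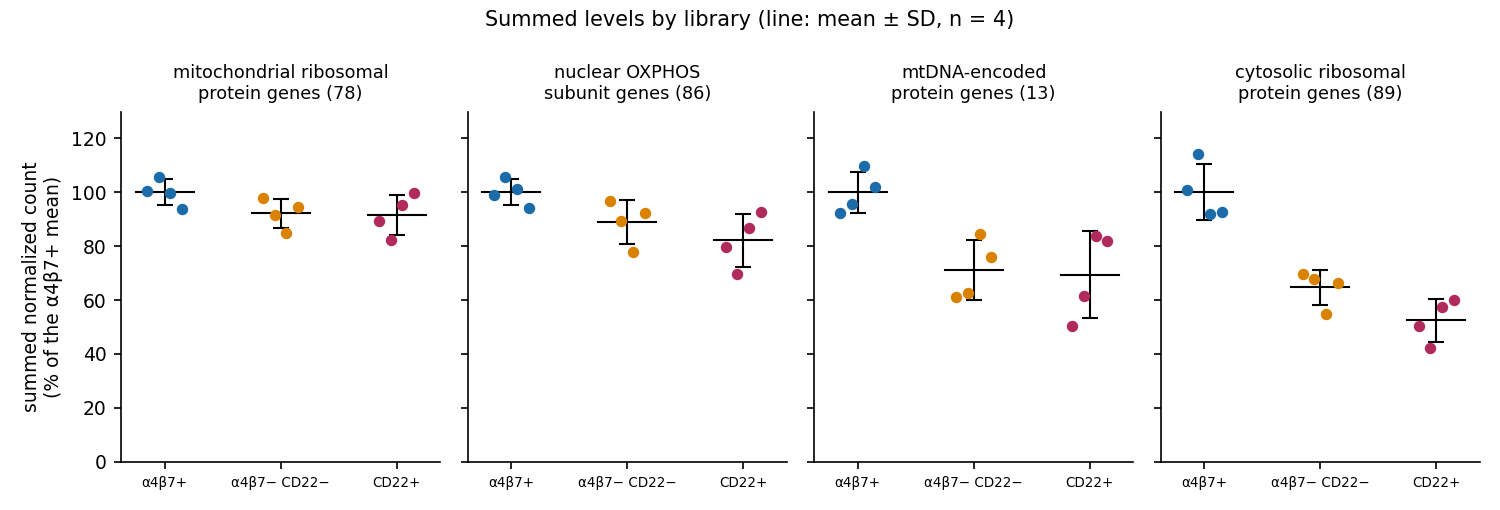
Summed normalized counts of 4 gene groups in each library, as a percent of the α4β7+ mean of that group, with the mean and SD of 4 libraries; axes start at 0. The sums of the mitochondrial ribosomal protein genes overlap between subsets (16684 to 18812 in α4β7+ and 14601 to 17709 in CD22+), whereas those of the cytosolic ribosomal protein genes do not overlap between α4β7+ (287924 to 357633) and CD22+ (131844 to 187829).

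The genes that surround the ribosome in mitochondrial translation were read in the same way. Ribosome proteins with other symbols (Dap3, Ptcd3, Chchd1, Aurkaip1, and Gadd45gip1) had medians of −0.11 and −0.24 in α4β7− CD22− and CD22+ over α4β7+, and 0 of the 5 were called by limma. At an unadjusted p under 0.05, Ptcd3 was lower and Aurkaip1 higher in α4β7− CD22− (20% each, against 13.5% and 13.6% of all genes). Dap3 was lower in CD22+ at that threshold (−0.35, adjusted p = 0.0532 by limma, 20% of the list against 15.9% of all genes). Of 25 assembly factors, 2 were called higher in both subsets (8%, against 3.70% and 5.60% of all genes). Malsu1, which keeps the subunits from joining too early, had 79.4 to 98.5 normalized counts in α4β7+ libraries, 151.6 to 185.1 in the α4β7− CD22− libraries, and 148.7 to 170.4 in those of CD22+. Its α4β7+ libraries lay below all others, and the other subsets overlapped (0.84, adjusted p = 0.000877, and 0.80, adjusted p = 0.000777, by limma). Nsun4, a methyltransferase of the small-subunit rRNA that also acts in subunit joining, had 184.3 to 253.0, 344.2 to 433.9, and 337.5 to 420.9 (0.82, adjusted p = 0.000675, and 0.80, adjusted p = 0.000485). Between α4β7− CD22− and CD22+ their differences were −0.04 and −0.02 (adjusted p = 0.967 and 0.984). The medians of the assembly list were 0.15 and 0.08, and its most negative estimates were Fastkd2 in α4β7− CD22− (−0.55, adjusted p = 0.193) and Tfb1m in CD22+ (−0.72, adjusted p = 0.129).

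Of the 16 translation factors, 0 were called by limma in any of the 3 comparisons, with medians of 0.02, 0.06, and 0.04. At an unadjusted p under 0.05, 2, 3, and 2 of them were higher (12.5%, 18.8%, and 12.5%, against 13.6%, 16.1%, and 3.65% of all genes) and 0 lower, and the smallest adjusted p was 0.0537 (Mtif3, an initiation factor, in CD22+ over α4β7+). Of 20 aminoacyl-tRNA synthetase and related genes, Ears2 was called lower in α4β7− CD22− (31.5 to 70.3 normalized counts in α4β7+ against 21.3 to 36.5, −0.94, adjusted p = 0.0449) and Pars2 higher in CD22+ (28.7 to 78 against 55.2 to 128.5, 1.00, adjusted p = 0.0464), both with overlapping libraries. Each was 5% of the list, against 4.35% of all genes called lower and 5.60% called higher in those comparisons. Among 22 genes of mitochondrial transcription and RNA handling, Hsd17b10, a subunit of mitochondrial RNase P, was the 1 gene called lower in both (4.55%, against 4.35% and 6.39% of all genes), with 183.8 to 259.5 in α4β7+ libraries, 111.1 to 155.8 in the α4β7− CD22− libraries, and 93.5 to 163.5 in those of CD22+ (−0.67, adjusted p = 0.0297, and −0.83, adjusted p = 0.00603).

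The templates of mitochondrial translation are the mRNAs of the 13 proteins encoded by mitochondrial DNA. Their sum was 155122 ± 11884 (SD, n = 4) in α4β7+ libraries, 110186 ± 17357 in the α4β7− CD22− libraries, and 107683 ± 25028 in those of CD22+. The medians were −0.51 and −0.46, with mt-Co1 called lower in α4β7− CD22− (−0.62, adjusted p = 0.0213 by limma) and mt-Co1 (−0.80), mt-Cytb (−0.66), and mt-Nd1 (−0.63) in CD22+. These were 7.69% and 23.1% of the 13, against 4.35% and 6.39% of all genes. At an unadjusted p under 0.05, 8 of the 13 were lower in each (61.5%, against 13.5% and 15.9% of all genes). The 2 rRNAs of the mitochondrial ribosome were not found among the genes measured, so they were not analysed here.

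Of 11 regulators tested, 2 were called lower in both comparisons with α4β7+ (18.2%, against 4.35% and 6.39% of all genes). Myc, a growth-linked factor, was at 649.2 ± 125.6 (SD, n = 4) normalized counts in α4β7+ libraries, 42.6 ± 9.77 in the α4β7− CD22− libraries, and 42.3 ± 20.2 in those of CD22+. Its log2 fold changes were −3.91 (adjusted p = 4.14e-07 by limma) and −3.99 (adjusted p = 9.75e-08). Pprc1, a coactivator of NRF1, was at 404.3 to 638.7, 181.6 to 255.8, and 174.7 to 387.3 normalized counts, with −1.22 (adjusted p = 0.00208) and −1.19 (adjusted p = 0.00155). At the adjusted p alone, 4 of the 11 were lower in CD22+ than in α4β7+ (Myc, Pprc1, Gabpb1, and Esrra), against 11.1% of all genes. In α4β7− CD22− over α4β7+, 2 were lower at that threshold, against 7.73% of all genes. Nrf1, Gabpa (an ETS factor), and Yy1, whose letters were also searched above, were not called. Nrf1 had 1022 to 1116 normalized counts in α4β7+ libraries, 1064 to 1178 in the α4β7− CD22− libraries, and 995.6 to 1083 in those of CD22+.

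**Figure D5:**
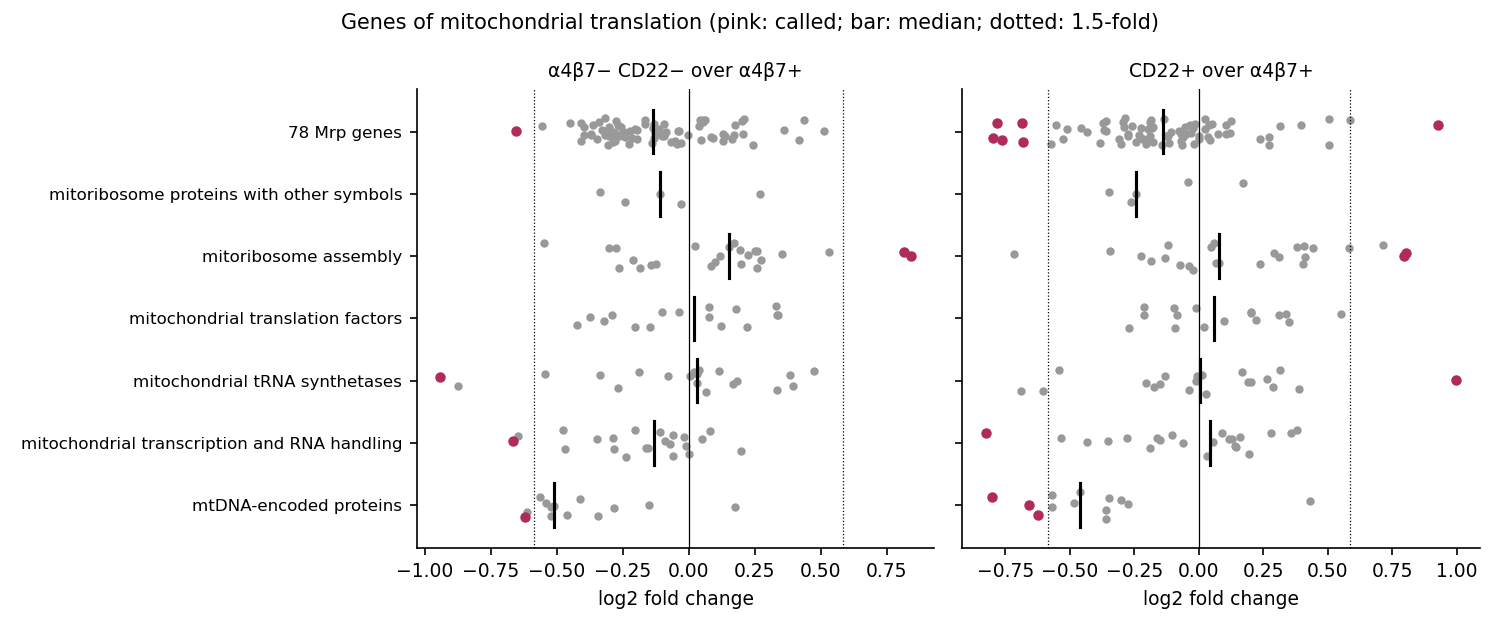
Log2 fold changes over α4β7+ of the 78 genes and of 6 lists of mitochondrial translation, 1 point per gene tested, with called genes in pink, a bar at the median, and dotted lines at 1.5-fold. The members centre near −0.14 in both comparisons, the mtDNA-encoded genes near −0.51 and −0.46, and the called assembly factors, Malsu1 and Nsun4, lie between 0.80 and 0.84.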

How the data were processed

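RNA from 12 libraries was sequenced with paired ends from 3 ng of total RNA with a stranded kit. Per the submitters' processing notes, reads were handled with Trimmomatic 0.39, kallisto 0.46.1, and DESeq2 1.38.2, on GRCm38. The deposited signal values are normalized counts that the authors made with DESeq2; they are not whole, so no count model was run. No column of values lacked a library.

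Genes with an average above 10 were fitted with limma 3.58.1 (R 4.3.3, variance trend, all 12 libraries, pseudocount 1), with Benjamini-Hochberg adjustment within each comparison. Deviations of same-numbered libraries from their subset means correlated at 0.135 to 0.203 between α4β7− CD22− and CD22+, where all 4 pairs passed 0.1 and the numbers were taken as a pairing seen in the data and not stated in the labels. With α4β7+ they correlated at 0.043 to 0.137 and at −0.059 to 0.182, and there the numbers were not taken to pair libraries. The replicate number as a block was an alternative. The pseudocount understates the changes of low genes. On simulated data for CD22+ over α4β7+ (15249 genes), 57% of 100 genes changed by 1 log2 unit and 86% of 50 changed by 2 were called, with 4 of 15049 unchanged genes. Another 50 genes were changed by 1.5-fold, and their recovery is not given. Far fewer genes were changed there than were called in the data, so these shares may differ from those in the data. Lengths, positions, and overlaps came from GENCODE (GRCm38), matching 35968 of 36047 identifiers, and shared sequence from BLAST 2.17.0 (matches of 75 bases or more, 90% identity or more). Tables and figures used Python 3.11.15, pandas 2.3.3, and matplotlib 3.10.9.

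The members, lists, and tests were chosen with earlier results of these data known. Genes named were those called, the 3 largest estimates per comparison and direction, the 5 highest and 3 lowest per kilobase, the Mrps18 paralogues, Mrps30, Mrps36, and, per pathway list, up to 4 called genes and the largest estimates each way. Genes passing the adjusted p alone or without overlap were added after their values were seen. Alternatives were other pseudocounts, filters, scalings, models, and call rules, and each library left out. The authors' raw reads were not used here.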

Additional observations from a re-analysis of the deposited data

Results flagged for a closer look

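For 29 members and for the sum over all members, in each of the 3 subsets, 90 sets of 4 libraries were examined for a library far from the other 3. There were 6, and chance gives about 1 in 20. Mrpl10 had 293.5 normalized counts in α4β7+ replicate 3, against 384.5 to 394.0 in the other libraries of the subset, and 344.3 in CD22+ replicate 4, against 310.2 to 314.6. Mrpl14 had 57.2 normalized counts in α4β7− CD22− replicate 3, against 98.5 to 105.8 in the other libraries of the subset. Mrps11 had 78.6 in α4β7+ replicate 3, against 51.5 to 52.5. Mrps12 had 83.8 in α4β7− CD22− replicate 4, against 104.0 to 108.1. Mrps30 had 265.5 in α4β7+ replicate 3, against 320.3 to 329.5.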

How the results depend on the processing

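In α4β7− CD22− over α4β7+, the count of 1 member lower became 0 with no filter on low values, with rescaling by the 75th percentile, and with equal totals, and ranged from 0 to 1 as libraries were left out. The gene lost was Mrps18b (adjusted p 0.0825, 0.0561, and 0.0800 by limma). The count of 0 higher became 1 (Mrpl1) with equal totals and at the adjusted p alone. In CD22+ over α4β7+, 5 lower became 3 with equal totals and 8 at the adjusted p alone, and 1 higher became 3 under each. Equal totals turned the median there from −0.139 to 0.018, gave 1 higher member (Mrpl49) between CD22+ and α4β7− CD22−, and moved the α4β7+ sum from 17774 to 16762, since they raise the values of CD22+ libraries against those of α4β7+. Leaving out libraries gave 4 to 7 lower members in CD22+ over α4β7+ (5.13% to 8.97%, against 5.94% to 6.62% of all genes). Other pseudocounts, a filter at 50, quantile normalization, limma without the trend, and a model of only the compared subsets changed none of these counts by over 1.5 times. With the replicate block over all 12 libraries, 1 lower member was called in the first comparison, 5 lower and 1 higher in the second, and 0 in the third, the same genes in each, and the block changed no other call. A block fitted to only α4β7− CD22− and CD22+, chosen after seeing the data, also called 0 members, with a median of −0.009, and at an unadjusted p under 0.05 limma gave 0 lower and 2 higher. Standard errors of the members reached 0.394 log2 units, which limits what the test can show for them; how far depth sets this was not tested.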
